A study of Mus musculus with 2 samples.

Results

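The genes described here are the 10 that encode the main scaffold proteins of the excitatory postsynaptic density in 3 families: the MAGUK proteins Dlg1, Dlg2, Dlg3 and Dlg4, the Shank proteins Shank1, Shank2 and Shank3, and the Homer proteins Homer1, Homer2 and Homer3. They were taken by gene symbol, and all 10 were found among the 55536 gene rows of the deposited tables. Total RNA was sequenced from the left cerebral cortex of 2 mice, both female, 10 days old and of strain B6CASTF1/J, with 1 library per animal made from 300 ng and ERCC spike-ins added. The strain is an F1 hybrid of a laboratory strain and the wild-derived CAST strain, and the labels name no treatment, no engineered allele and no second group. Values are given for replicate 1 and replicate 2 with mean ± SD (n = 2 throughout). The smallest exact two-sided p that 2 animals allow is 0.5, so no p-value was computed, and every comparison is a description of these 2 libraries.

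The postsynaptic density is a protein sheet under the membrane of an excitatory synapse. MAGUK proteins form its layer nearest the membrane, where their PDZ domains hold NMDA receptors, AMPA receptor auxiliary subunits and adhesion proteins. SAPAP proteins (Dlgap genes) link the MAGUKs to the Shank proteins, which lie deeper and reach the actin cytoskeleton. Homer proteins bind Shank, metabotropic glutamate receptors and calcium channels of internal stores through their EVH1 domain. Long Homer forms join into tetramers by a coiled coil at the C-terminus, and short Homer1 forms bind the same ligands without it. In the rodent cortex this machinery is laid down during the first weeks after birth.

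The gene tables held 29990965 expected reads in replicate 1 and 31156256 in replicate 2, of which ERCC spike-ins took 0.413% and 0.401%. Levels are TPM, a share of all transcripts after correction for length, from the alignment-based tables unless the alignment-free tables are named. The cortical label was checked against markers fixed for this purpose. All 6 excitatory neuron markers were at 1 TPM or more in both libraries, with a median of 64.7 ± 6.07 TPM, led by Slc17a7. Of all 22015 nuclear protein-coding genes, 13003 were at 1 TPM or more in both libraries. Of 5 cerebellar markers 2 reached that level, and the median over the 5 was 0.140 ± 0.170 TPM. All 5 markers of striatal projection neurons were detected, with a median of 10.2 ± 1.17 TPM, from Drd2 (2.31 ± 0.495) to Ppp1r1b (25 ± 6.17), and 2 of 4 hippocampal markers were, with a median of 2.11 ± 0.170 TPM. Among the markers, the myelin transcript Mbp differed between the animals, at 90.0 TPM in replicate 1 and 181 TPM in replicate 2. The part of the striatal markers and of this difference in the values below was not tested. In whole tissue, fewer cells of a type and less RNA per cell cannot be told apart.

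Dlg4, which encodes PSD-95, the most studied MAGUK of the postsynaptic density, was the highest of the 10 genes with 429 TPM in replicate 1 and 456 TPM in replicate 2 (443 ± 18.6). It stood above 99.3% of the 13003 nuclear protein-coding genes at 1 TPM or more in both libraries, whose median was 16.6 TPM. Shank1 followed with 213 and 225 TPM (219 ± 8.06) and Dlg2, which encodes PSD-93, with 220 and 213 TPM (216 ± 4.29). These 2 genes exchanged places between the animals.

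The middle of the order held 5 genes, 2 Shank, 2 MAGUK and 1 Homer. Shank3 was at 96.7 and 93.5 TPM (95.1 ± 2.28) and Shank2 at 84.8 and 86.4 TPM (85.6 ± 1.10). Dlg3, which encodes SAP102 and lies on the X chromosome, was at 74.9 and 69.7 TPM (72.3 ± 3.69). Homer1 was at 73.6 and 70.5 TPM (72.1 ± 2.18), a level that could not be set apart from Dlg3 because the order differed between libraries. Dlg1, which encodes SAP97, was at 50.9 and 48.0 TPM (49.4 ± 2.06).

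The last places belonged to the other Homer genes. Homer2 was at 35.3 and 32.2 TPM (33.8 ± 2.20), above 71.9% of detected protein-coding genes. Homer3 was at 3.91 and 4.84 TPM (4.38 ± 0.658), above 17.5% of them, on 149 and 195 expected reads. Homer3 was thus the sole member under the median of detected genes, and Dlg4 exceeded it 102-fold ± 11.1 within a library.

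Of the 9 neighbouring pairs in this order, 7 stood apart, meaning that both libraries gave the same order and the deposited credible intervals did not overlap in either. The pairs that did not were Shank1 with Dlg2 (mean ratio 1.01) and Dlg3 with Homer1 (mean ratio 1.00). The widest gaps were from Homer2 to Homer3 (7.75-fold), from Dlg2 to Shank3 (2.28-fold) and from Dlg4 to Shank1 (2.02-fold). The narrowest gap that held was Shank3 over Shank2, 1.11-fold. This order was the other way round when expected reads were compared without correction for length. Gene TPM counts every annotated model, and complete coding models made up 64.3% of Shank3 and 96.2% of Shank2. By complete coding models alone, Shank2 was above Shank3 in both libraries. Dlg3 (92.1% complete coding) and Homer1 (99.9%) were then also above Shank3. By the same measure the pairs that did not stand apart had 1 order in both libraries. Shank1 (85.4% complete coding) was above Dlg2 (68.2%), and Homer1 was above Dlg3. The alignment-free tables gave these orders too, in both libraries. The deposited intervals enclose a posterior mean, given beside the TPM, rather than the TPM itself. For Shank1 and Shank2 the TPM lay just above the upper bound in both libraries, for example 213 TPM against bounds of 200 and 212 for Shank1 in replicate 1.

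**Figure D1:**
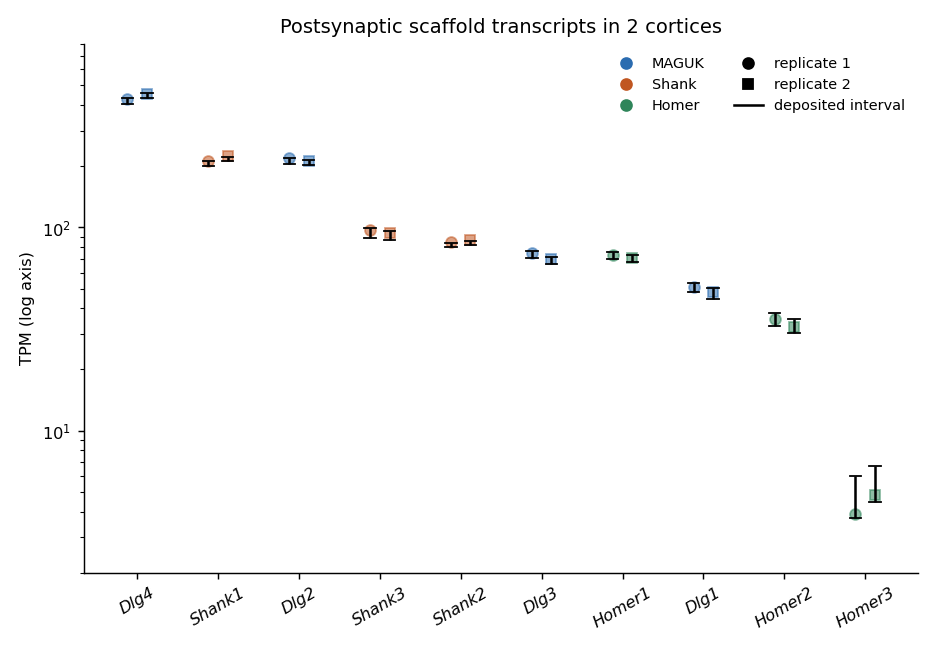
Level of each scaffold gene in TPM (log axis) in replicate 1 (circles) and replicate 2 (squares), coloured by family, with the deposited credible interval of each library as a black bar. Dlg4 sits highest at 429 and 456 TPM, Shank1 and Dlg2 overlap near 216 TPM, and Homer3 lies lowest at 3.91 and 4.84 TPM.

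In the sums by family, MAGUK means Dlg1 to Dlg4 only, without the other MAGUK genes listed further on. Summed in this way, the MAGUK genes held 775 and 787 TPM (781 ± 8.53), the Shank genes 395 and 405 TPM (400 ± 6.88) and the Homer genes 113 and 108 TPM (110 ± 3.73). Transcripts of Dlg1 to Dlg4 therefore outnumbered Shank transcripts 1.95-fold ± 0.0123 and Homer transcripts 7.09-fold ± 0.317. Shank transcripts outnumbered Homer transcripts 3.63-fold ± 0.185. The alignment-free tables gave 2.10-fold, 7.06-fold and 3.36-fold for the same 3 ratios. By expected reads, where long transcripts weigh more, they were 1.07-fold, 7.21-fold and 6.76-fold, so that the MAGUK and Shank families were nearly level.

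Each family had a leading gene. Of the transcripts of Dlg1 to Dlg4, Dlg4 held 56.7% ± 1.76, Dlg2 27.7% ± 0.853, Dlg3 9.27% ± 0.574 and Dlg1 6.33% ± 0.333. In the Shank family Shank1 held 54.8% ± 1.07, Shank3 23.8% ± 0.981 and Shank2 21.4% ± 0.0928. In the Homer family Homer1 held 65.4% ± 0.229, Homer2 30.6% ± 0.960 and Homer3 3.98% ± 0.731. The same genes led each family in the alignment-free tables, with 61.5%, 56.8% and 66.8%. By expected reads, Dlg4 led Dlg2 by 43.3% to 39.3%, and Shank2 (24.1%) passed Shank3 (16.8%).

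**Figure D2:**
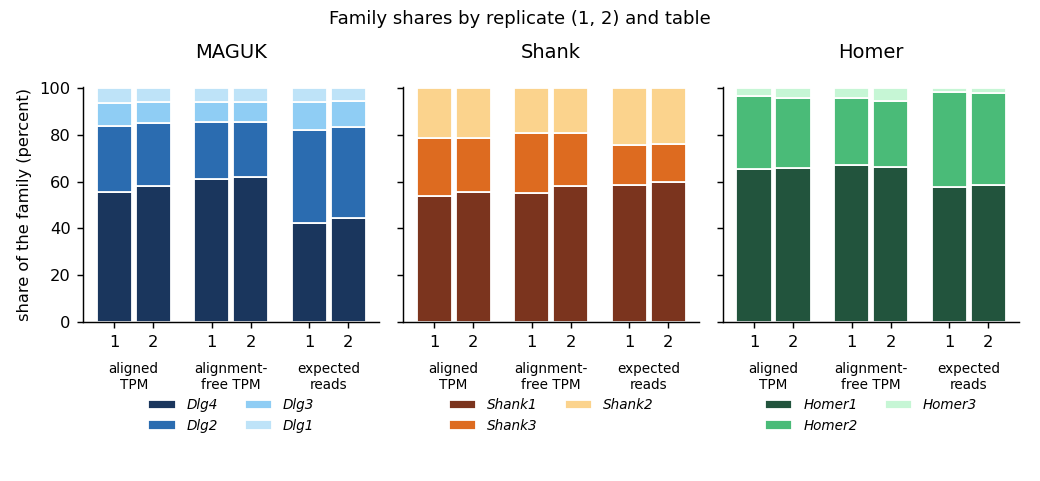
Share of each gene in the summed value of its family, in percent, for replicates 1 and 2 in alignment-based TPM, alignment-free TPM and expected reads. The MAGUK family here is Dlg1 to Dlg4. Dlg4, Shank1 and Homer1 form the largest segment of their family in all 6 bars, and the Dlg2 segment widens from 27.7% of TPM to 39.3% of expected reads.

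The MAGUK genes differ in how their coding sequence begins, and this matters for the protein, because PSD-95 and PSD-93 are anchored to the membrane by palmitoylation of a cysteine pair near the N-terminus. The first 45 coding bases of the main annotated starts are shown for this reason, read from the GENCODE M21 transcripts, 5′ to 3′, with cysteine codons in capitals.
Dlg4-203: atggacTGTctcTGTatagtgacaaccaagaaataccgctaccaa
Dlg4-201: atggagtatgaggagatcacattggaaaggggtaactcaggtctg
Dlg2-204: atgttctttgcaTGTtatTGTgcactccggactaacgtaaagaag
Dlg2-217: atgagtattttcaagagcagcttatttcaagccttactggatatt
Dlg3-202: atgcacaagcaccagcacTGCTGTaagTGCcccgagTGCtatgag
Dlg1-204: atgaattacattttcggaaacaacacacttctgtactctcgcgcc
Dlg1-203: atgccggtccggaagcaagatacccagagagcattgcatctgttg
Dlg4-203 has cysteine codons at positions 3 and 5, counted from the start codon, and Dlg2-204 at positions 5 and 7. Dlg3-202 has 4 of them in this stretch. Dlg4-201, Dlg2-217 and both Dlg1 starts have none in the stretch. On the plus strand of mm10 the stretches run over chr11:70018920-70026937 (Dlg4-203), chr11:70030625-70030881 (Dlg4-201), chr7:91091007-91449756 (Dlg2-204), chr7:90504898-90731899 (Dlg2-217), chrX:100768072-100768116 (Dlg3-202), chr16:31754783-31754827 (Dlg1-204) and chr16:31664852-31665600 (Dlg1-203), and those longer than 45 bases cross an intron.

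Dlg4 (chromosome 11, 70016942 to 70047522 of mm10, plus strand, 22 annotated transcripts) was led by Dlg4-203, the 724-codon form with the cysteine pair, at 226 and 243 TPM (234 ± 12). The 664-codon form Dlg4-201, whose start codon at 70030625 lies downstream and lacks the pair, followed at 98.3 and 114 TPM (106 ± 11). Among complete coding transcripts of the gene, 70.6% ± 0.765 began at the start codon of the cysteine pair (70018920) and 29.4% ± 0.765 at the downstream start. The alignment-free tables put the division at 46.1% ± 1.44 and 53.9% ± 1.44, the reverse order. That difference sat in Dlg4-218, a further 664-codon form, which was at 139 and 152 TPM in the alignment-free tables and at 4.18 and 2.61 TPM in the alignment-based ones. An incomplete model of 540 bases, Dlg4-206, likewise moved from 2.08 and 1.14 TPM to 207 and 224 TPM. The 2 annotated forms with a start codon further upstream at 70017215 (764 and 767 codons) were at 0 TPM in both alignment-based tables and at no more than 0.000155 TPM in the alignment-free ones. The single transcript annotated for nonsense-mediated decay, Dlg4-205, held 0.193% ± 0.165 of the gene.

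Dlg2 (chromosome 7, 90476672 to 92449247, plus strand) spans 1973 kb, the longest of the 10 genes. Dlg2-204, 852 codons with the cysteine pair, led at 135 and 136 TPM (136 ± 0.792). Its start codon (91091007), shared with Dlg2-201 (870 codons, 6.96 and 4.90 TPM), took 96.0% ± 0.520 of complete coding transcripts and 93.4% ± 1.60 in the alignment-free tables. The 957-codon Dlg2-217, which begins far upstream without the pair, took 3.56% ± 0.213 and 3.88% ± 0.0156. A noncoding processed transcript of 964 bases, Dlg2-207, held 50.4 and 51.6 TPM, or 23.6% ± 0.859 of the gene, and 23.6% in the alignment-free tables. It took 3.85% of the expected reads of the gene.

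Dlg3 (chromosome X, 100767722 to 100818410, plus strand) had 1 dominant coding start at 100768072, with 99.3% ± 0.327 of complete coding transcripts. Dlg3-202 (849 codons) was at 36.6 and 39.8 TPM and Dlg3-201 (817 codons) at 25.2 and 22.3 TPM, so that the longer form led in both animals. The short noncoding Dlg3-205 was at 1.42 and 1.38 TPM in the alignment-based tables and at 15.5 and 25.1 TPM in the alignment-free ones.

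Dlg1 (chromosome 16, 31663443 to 31875129, plus strand) was the most divided of the MAGUK genes described here in alignment-based TPM. Its leading transcript held 36.3% ± 0.889 of the gene. In the alignment-free tables it held 35.2% ± 3.08, while the leading transcript of Dlg4 held less of its gene, 27.7% ± 0.287. Dlg1-204 (834 codons) led at 18.2 and 17.7 TPM, and its start codon at 31754783 took 53.0% ± 3.20 of complete coding transcripts against 47.0% ± 3.20 for the upstream start at 31664852, whose 5 forms have 872 to 927 codons. The alignment-free shares were 54.0% ± 2.57 and 46.0% ± 2.57. In TPM the downstream start was the larger in both animals, by less than 2 percentage points in replicate 1. By expected reads the upstream start was the larger, with 57.6% and 53.6%. Among upstream forms, Dlg1-203 was at 5.58 and 5.04 TPM and Dlg1-202 at 4.73 and 1.96 TPM. Dlg1-209, annotated for nonsense-mediated decay, was at 6.92 and 7.45 TPM, or 14.6% ± 1.37 of the gene. The incomplete coding model Dlg1-208 was listed at 0 in replicate 1 and at 3.09 TPM in replicate 2.

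Shank proteins carry ankyrin repeats, an SH3 domain, a PDZ domain, a proline-rich stretch and a SAM domain, and the proline-rich stretch holds the site to which Homer binds. The Homer EVH1 domain recognises proline, proline, any 2 residues and phenylalanine. The corresponding in-frame codons, CCNCCNNNNNNNTTT or CCNCCNNNNNNNTTC, were searched in coding sequence, on the coding strand and in frame only. The matches in the leading transcript of each Shank gene are printed as candidate Homer sites, with the 5 matching codons in capitals and 5 codons on each side. Which of these matches binds Homer was not tested.
Shank1-203 from codon 1575: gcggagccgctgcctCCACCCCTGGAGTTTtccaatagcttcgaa
Shank2-202 from codon 1034: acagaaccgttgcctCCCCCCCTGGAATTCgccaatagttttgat
Shank2-202 from codon 1100: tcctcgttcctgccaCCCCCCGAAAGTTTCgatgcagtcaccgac
Shank3-203 from codon 908: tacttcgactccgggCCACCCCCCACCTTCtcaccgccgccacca
Shank3-203 from codon 1384: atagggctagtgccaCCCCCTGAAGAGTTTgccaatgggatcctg
These 45-base windows lie on the plus strand of mm10 at chr7:44353566-44353610, chr7:144411111-144411155, chr7:144411309-144411353, chr15:89547760-89547804 and chr15:89549188-89549232. The longest complete coding sequence of all 3 Shank genes held a match, and none of Dlg1 to Dlg4 or of the Homer genes did. Over 21733 protein-coding genes 6.90% held a match, and 22.4% of the 2355 genes with 1000 codons or more did. Of the 15 genes listed as Homer ligands, Shanks included, 12 held it, among them Grm5, a metabotropic glutamate receptor, and Itpr1, the calcium channel of internal stores. The ligand list was made from known binding, so this count is a description.

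Shank1 (chromosome 7, 44310253 to 44360572, plus strand) had a single annotated coding start. Shank1-203 (2167 codons) was at 113 and 122 TPM (118 ± 6.74), Shank1-201 (2158 codons) at 51.5 and 52.7 TPM and Shank1-202 (2159 codons) at 17.8 and 16.7 TPM. The order of the 3 coding forms was the same in both animals and in both quantifications. Transcripts without a coding type held 14.6% ± 0.0133 of the gene, mostly the retained-intron model Shank1-206 at 23.3 and 24.9 TPM. In the alignment-free tables they held 27.2% ± 0.186, mostly the processed transcript Shank1-205 at 74.4 and 93.6 TPM.

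Shank2 (chromosome 7, 144001928 to 144424494, plus strand) was the least divided of the Shank genes. Shank2-202 (1472 codons, start codon at 144175920) was at 69.9 and 72.1 TPM (71.0 ± 1.56), or 82.9% ± 0.749 of the gene and 80.4% in the alignment-free tables. The longest form, Shank2-203 with 1841 codons, began 1.84% ± 0.288 of complete coding transcripts. The downstream start at 144284969, with forms of 1255 and 1262 codons, took 12% ± 0.595. Shank2-202 thus lacks the upstream part of the longest form but keeps both Homer-motif matches.

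Shank3 (chromosome 15, 89499623 to 89560261, plus strand) had forms whose balance differed between libraries and tables. Shank3-203 (1805 codons) was at 40.9 and 30.3 TPM and Shank3-201 (1730 codons) at 17.2 and 27.4 TPM, and the 2 libraries differed in the size of the gap although Shank3-203 led in both. The alignment-free tables put Shank3-203 at 62.1 and 72.3 TPM and Shank3-201 at 12.9 and 7.02 TPM, a gap that was wider in replicate 2 than in replicate 1, opposite to the alignment-based tables. Complete coding transcripts made up 64.3% ± 1.19 of the gene, the lowest such share of the 10 genes in TPM. By expected reads the share was 91.7% ± 0.894, and the lowest was that of Dlg1 at 77.9% ± 2.42. The retained-intron model Shank3-205 held 16.2% ± 0.0879 (15.7 and 15 TPM) and the incomplete coding model Shank3-207 9.47% ± 1.66 (10.3 and 7.75 TPM). In the alignment-free tables the processed transcript Shank3-206 was also high, at 29.7 and 25.3 TPM.

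**Figure D3:**
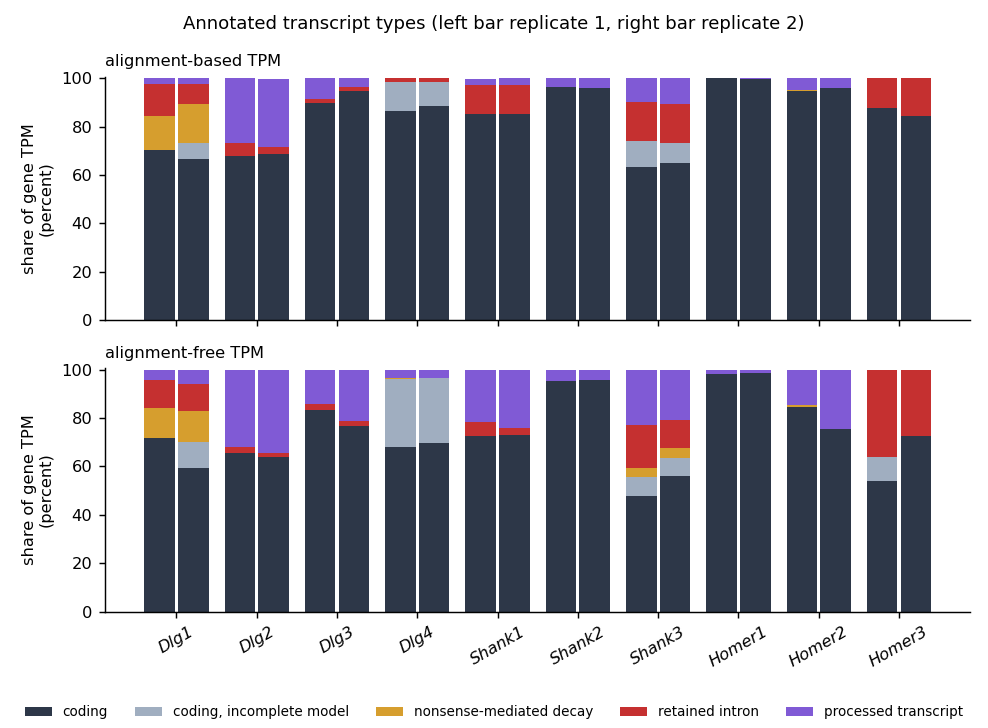
Share of each gene's TPM by annotated transcript type, in percent, for replicate 1 (left bar) and replicate 2 (right bar), in the alignment-based tables (upper panel) and the alignment-free tables (lower panel). Homer1 and Shank2 are almost wholly complete coding models in both panels, and Shank3 has a complete coding share of 64.3% in the upper and 52.0% in the lower panel.

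Homer1 (chromosome 13, 93299635 to 93405129, plus strand) makes long and short proteins. Of its coding forms, 10 share the start codon at 93305298, and the long form Homer1-202 has its own. Coding forms that end at the stop codon of the long protein are called long here, and coding forms that end elsewhere are called short. The point at which the forms part is shown in coding sequence, 5′ to 3′, with 30 bases before the fork in lower case and the bases after it, up to the stop codon or 45 bases, in capitals. For Homer1-203 the fork is that from Homer1-204, and for the others it is where they leave Homer1-203. The capitals of Homer1-203 therefore open with 36 bases that Homer1-207 shares. The windows begin at position 93356050 of mm10, and that of Homer1-207 at 93386351.
Homer1-203: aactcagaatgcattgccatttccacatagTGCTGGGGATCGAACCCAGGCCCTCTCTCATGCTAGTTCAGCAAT
Homer1-204: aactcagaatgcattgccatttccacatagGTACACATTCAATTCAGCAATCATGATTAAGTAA
Homer1-206: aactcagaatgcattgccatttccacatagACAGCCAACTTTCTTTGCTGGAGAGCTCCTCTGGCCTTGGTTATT
Homer1-207: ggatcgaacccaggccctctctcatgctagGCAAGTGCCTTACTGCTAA
Homer1-204 shares 527 coding bases with Homer1-203, then reads on past the exon end at position 93356079 and stops after 11 further codons (the codon split by the exon end included), giving 186 codons, the length known for the immediate early form Homer1a. Homer1-206 leaves at the same base for an exon at 93366278. Homer1-207 shares 563 bases, since it also includes the next exon of Homer1-203, then reads on past that exon's end at 93386380 and stops after 6 further codons.

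The long forms were led by Homer1-203 (366 codons) at 26.9 and 24.6 TPM (25.8 ± 1.63). Homer1-202 (370 codons, with its own start codon at 93308308) followed at 17.2 and 15.6 TPM (16.4 ± 1.12). Homer1-201, the 354-codon form that lacks the 12-codon exon of Homer1-203, was listed at 0 in all 4 tables. Among the short forms Homer1-207 (193 codons) was at 18.5 and 20.1 TPM (19.3 ± 1.17), while Homer1-204, the form of Homer1a length, was at 6.44 and 6.16 TPM. Homer1-207 exceeded Homer1-204 3.07-fold ± 0.282 and made up 65.6% ± 1.55 of the short transcripts, against 21.4% ± 1.46 for Homer1-204. The alignment-free ratio was 3.49-fold ± 0.484. By expected reads, without correction for length, the gap was narrower. Homer1-207 (2468 bases) took 820 and 978 reads, and Homer1-204 (5713 bases) took 677 and 708.

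Short forms together were 28.7 and 30.2 TPM (29.4 ± 1.08) and long forms 45 and 40.2 TPM (42.6 ± 3.34). The short share of coding Homer1 transcripts was 39.0% and 42.9% (40.9% ± 2.79). It was 37.0% ± 0.608 in the alignment-free tables. There, Homer1-210, a 180-codon model that skips several exons but ends at the long stop codon, was at 14.3 and 24.8 TPM, while the alignment-based tables listed it at 0. Counting by length, with 350 codons as the limit, gave 41.5% ± 1.98 in the alignment-based and 55.7% ± 4.49 in the alignment-free tables, so that transcripts for proteins under that length were the minority in the first and the majority in the second.

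**Figure D4:**
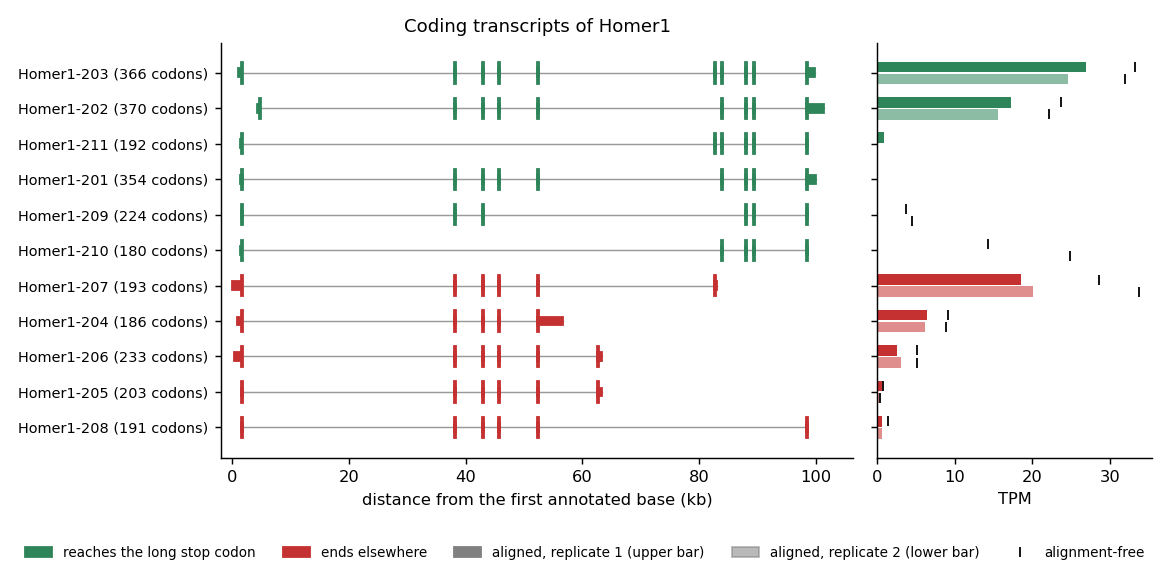
Coding transcripts of Homer1 as exons along the gene (left, distance in kb, thick boxes coding and thin boxes untranslated) and their TPM (right, bars alignment-based for replicates 1 and 2, ticks alignment-free), green for forms that reach the long stop codon and red for forms that end elsewhere. Homer1-207 is the highest red form in both animals, and the ticks of Homer1-210 at 14.3 and 24.8 TPM have no bar beside them.

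Homer2 (chromosome 7, 81600481 to 81707527, minus strand) was led in TPM by Homer2-201 (343 codons) at 15.4 and 15.3 TPM (15.3 ± 0.0354). The 290-codon Homer2-202, which starts downstream at 81636462 and is annotated with 10982 bases, was at 12.3 and 11.1 TPM (11.7 ± 0.841). Because of its length it took 78.9% of the expected reads of the gene, and it was the leading form by reads, the sole gene of the 10 where TPM and reads named different leading transcripts. The 354-codon Homer2-206 was at 5.76 and 4.59 TPM, and at 3.73 and 0.0347 TPM in the alignment-free tables. The noncoding Homer2-208 was at 0.240 and 0.120 TPM, and at 6.29 and 12.8 TPM in the alignment-free tables.

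Homer3 (chromosome 8, 70282827 to 70294361, plus strand) had forms that differed between libraries and tables. Homer3-201 (359 codons) was at 3.44 and 2.40 TPM, and Homer3-203, also 359 codons, was listed at 0 in replicate 1 and at 1.52 TPM in replicate 2. The share of Homer3-201 was 87.8% and 49.7%. In the alignment-free tables Homer3-201 led in replicate 1 and Homer3-202, a 122-codon model, in replicate 2. In those tables the retained-intron models Homer3-205 (0.407 and 2.38 TPM) and Homer3-207 (2.19 and 0.508 TPM) and the 356-codon Homer3-206 (1.38 and 0.0441 TPM) each passed 10% of the gene in 1 animal.

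Across the 10 genes the same transcript led in both animals for 10 of 10 by alignment-based TPM and for 8 of 10 by alignment-free TPM. All 4 tables named the same leading transcript for 8 of 10, the exceptions being Homer1, where Homer1-207 led in the alignment-free table of replicate 2, and Homer3.

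No scaffold gene differed strongly between the 2 animals. On reads scaled by TMM, a factor that brings the bulk of genes to a common level, 0 of the 10 genes differed 2-fold or more, against 44 of the 12682 genes with a mean of 100 reads or more (0.347%). With a background of this size, a count of 0 among 10 genes says nothing particular about them. The largest log2 ratios of replicate 2 over replicate 1 were those of Homer3 (0.37, on 149 and 195 reads), Dlg4 (0.20, on 22869 and 26597 reads) and Shank1 (0.20, on 29362 and 34057 reads). Shank2 was at 0.14, Shank3 at 0.12 and Dlg2 at 0.10. Homer1 (0.05), Dlg3 (0.03), Dlg1 (0.01) and Homer2 (-0.02) lay nearest to 0.

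The median log2 ratio of the 10 genes was 0.11, and that of all genes tested was 0.02. By this scaling 9 of the 10 were higher in replicate 2, as were 56.1% of all genes tested. The direction depended on the scaling, with 7 of 10 higher by library total (43.5% of all genes), 10 of 10 in the alignment-free counts (60.6%) and 4 of 10 by the ratio of TPM (25.7%), where the median of all genes moved to -0.10 and that of the members to -0.04. Relative to the median of all genes, the members' median was higher in replicate 2 in each of these. These settings rescale the same 2 libraries. By TMM, medians of the other lists ran from -0.242 (striatal projection neurons) to 0.225 (oligodendrocyte lineage), with excitatory neuron markers at 0.156. A median of 0.11 was thus not particular to the scaffolds.

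**Figure D5:**
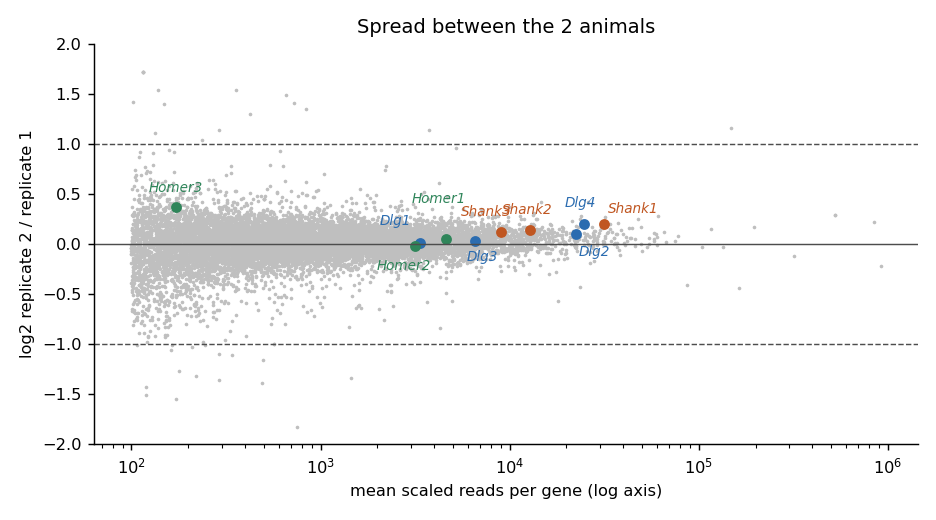
Log2 ratio of replicate 2 over replicate 1 against the mean of TMM-scaled reads (log axis) for the 12682 genes with a mean of 100 reads or more (grey) and the 10 scaffold genes (coloured by family). Dashed lines mark 2-fold, 10 genes beyond the axis limit of 2 are not drawn, and all scaffold genes lie between -0.02 and 0.37.

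Absolute TPM was higher in the alignment-free tables, where nuclear protein-coding genes held 79.1% and 80.0% of TPM against 50.8% and 48.5% in the alignment-based ones. On a scale where these genes sum to the same total, the alignment-free level was between 0.902-fold and 1.39-fold the alignment-based one for the 10 genes, highest for Homer3 (1.39) and Dlg4 (1.17). None of the 10 differed 2-fold between quantifications, and 1.33% of 13003 detected protein-coding genes did. Among the 10, Homer1 passed Shank2 and Dlg3 in the alignment-free order, and the other places from Dlg4 to Homer3 followed the same sequence.

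Partners of the scaffolds were described as lists. Their detection is set against 13003 of all 22015 nuclear protein-coding genes at 1 TPM or more in both libraries. All 4 SAPAP linkers, which join MAGUK to Shank, were detected, here meaning 1 TPM or more in each library, with a median of 110 ± 2.60 TPM, from Dlgap2 (40.7 ± 2.14) to Dlgap3 (137 ± 1.20). All 19 MAGUK-bound receptors and adhesion proteins were detected, with a median of 53.6 ± 5.0 TPM, from the NMDA receptor subunit Grin2c (7.38 ± 0.156) to the obligatory subunit Grin1 (191 ± 0.0919). All 18 MAGUK-bound enzymes and adaptors were detected, with a median of 67.5 ± 0.223 TPM, from the nitric oxide synthase Nos1 (11 ± 1.39) to the dynein light chain Dynll1 (351 ± 26.3). None of the genes in these 3 lists was 2-fold apart between the animals. Set beside these partners, Dlg4 at 443 TPM was above every member of the 3 lists.

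All 12 Shank partners were detected, with a median of 60.0 ± 0.110 TPM, from Abi3 (2.89 ± 0.0566) to the spectrin Sptan1 (510 ± 19.6). All 15 Homer ligands were detected, with a median of 44.4 ± 0.170 TPM, from the ryanodine receptor Ryr1 (2.80 ± 0.926) to the GTPase-activating protein Agap2 (278 ± 3.76). That list includes the scaffold genes Shank1, Shank2 and Shank3 themselves, each of them above its median. The metabotropic glutamate receptor Grm5 was at 108 and 94.6 TPM, above Homer1 in both animals. Of 15 other MAGUK genes 13 were detected, with a median of 19.5 ± 1.24 TPM, the highest being Cask (83.8 ± 4.66), and the 2 under 1 TPM were Mpp4 (0.460 ± 0.0141) and Tjp3 (0.275 ± 0.120). Of these 3 lists, 0 genes with a mean of 100 reads or more were 2-fold apart between the animals, and Mpp4 and Tjp3 were below that limit.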

How the data were processed

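Per the deposited README files, the authors aligned reads to mm10 with annotation M21 and derived expected counts, TPM and credible bounds per gene and per transcript. The deposited alignment-free tables hold estimated counts and TPM that the authors obtained per transcript without alignment, per the same files; these were summed per gene. Alleles of the hybrid strain were not separated, with tools, versions and interval level not given in the sources used here. Coordinates, transcript types and coding sequences came from GENCODE M21. The members and lists were chosen with earlier results of these data known.

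All 10 members, their leading transcripts and transcripts with 10% or more of a gene in any table were described by rule. The ratio between libraries used expected counts rounded to whole numbers, TMM factors (edgeR 4.0.16, limma 3.58.1, R 4.3.3), 0.5 added to each count and a mean of 100 reads or more. Some listed genes are not reported here. Rows without a gene held 6.88 reads and 1.00 read and were left out. The scaled ratio between libraries was tested on simulated data. DESeq2 1.42.0 gave size factors for an alternative. The intended short Homer1 class required a shared start codon, but the longest annotated coding sequence uses another start, so the stop codon alone set the classes. The Homer motif was counted in codons instead of proteins, and family identity of proteins was not analysed here. Credible bounds cover read assignment and counting error within a library only.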

Additional observations from a re-analysis of the deposited data

How the results depend on the processing

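The number of neighbouring pairs that stood apart (7 of 9) was also 7 with gaps over 2 SD and 9 by order alone in the alignment-free tables, and leaving out either replicate gave 7 and 7. The share of Dlg4 was 43.3% by expected counts and 61.5% in the alignment-free tables, that of Shank1 59.2% and 56.8%, and that of Homer1 57.9% and 66.8%; without either replicate they ranged from 55.4% to 57.9%, from 54.0% to 55.5% and from 65.2% to 65.6%. The median log2 ratio of the members was between 0.07 and 0.13 in the other alternatives and reversed to -0.04 with the ratio of TPM, where the median of all genes was -0.10. The number 2-fold apart was 0 in each. The short share of Homer1 was 37.0% in the alignment-free tables and 38.1% by expected counts, 55.7% in the alignment-free tables with the class by length (chosen after seeing the data), and 39.0% to 42.9% without either replicate. The cause was not tested for these. Of the 15 Homer ligands, 2 held the motif with a glutamate codon in the third place and 4 with an arginine codon after it, narrower patterns by construction. No paired analysis was possible because there is 1 group and no test. Depth limits Homer3, with 149 and 195 reads, most.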

Other observations

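Other postsynaptic genes were detected alongside the scaffolds, as were 13003 of all 22015 nuclear protein-coding genes. Of the AMPA receptor scaffolds 5 of 5 reached 1 TPM in both libraries, from Grip2 (9.98 ± 0.346 TPM) to the fusion ATPase Nsf (300 ± 32.2 TPM). The inhibitory scaffold gephyrin (Gphn) was at 40.4 and 38.7 TPM.

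Of 11 regulators, 11 were detected, with a median of 31.4 ± 3.47 TPM. Mef2c, a transcription factor of activity-dependent synapse genes, was highest at 609 and 664 TPM. The immediate early gene Arc was at 9.20 and 13.1 TPM and Egr1 at 39.2 and 47.3 TPM, both higher in replicate 2 by less than 2-fold. Ptbp2, a neuronal splicing repressor known to act on Dlg4, was at 82.3 and 63.1 TPM, and its relative Ptbp1 was at 30.7 and 25.1 TPM.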
